A study of Mus musculus with 4 samples.

Results

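The genes described here are the Wnt ligands, the Frizzled receptors and the proteins that carry their signal, in proliferating C2C12 myoblasts with and without forced C/EBPβ. Members were chosen by name: every gene whose symbol begins with Wnt or Fzd and a number, the R-spondins, Lgr4, Lgr5 and Lgr6, the Dishevelled genes, and a fixed set of secretion factors, co-receptors, ubiquitin ligases, destruction complex proteins and nuclear factors. The rule found 57 genes of 49585 in the count files. The rule uses gene names and no measured value.

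C2C12, a myoblast line from C3H mice, divides as long as serum is plentiful and fuses into myotubes after its removal. RNA was sequenced from 2 libraries of cells transduced with a retrovirus for C/EBPβ overexpression, a leucine-zipper transcription factor, and from 2 libraries of cells with the empty vector. All 4 libraries came from pools of transduced cells, selected for 7 days with G418 at 1200 μg/ml and grown for another 48 h in medium for which the labels state 10% serum. The comparison asks which transcripts differ when C/EBPβ is forced in myoblasts kept in growth medium.

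Wnt proteins are lipid-modified by Porcn, carried to the cell surface by Wls and bound by Frizzled receptors together with the co-receptors Lrp5 and Lrp6. In the canonical branch the Dishevelled proteins then block the destruction complex of Axin, Apc and Gsk3b, and the stabilised β-catenin joins TCF/LEF factors on DNA, whereas Ror and Ryk receptors serve mainly branches that do not need β-catenin. R-spondins bind Lgr receptors and hold back Znrf3 and Rnf43, the ligases that remove Frizzleds from the membrane, and in muscle the pathway is known for its part in the specification of embryonic myoblasts and in regeneration by satellite cells.

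Counts assigned to genes came to 38656497 and 92027838 in C/EBPβ cells and 40912955 and 37566321 in empty vector cells. Cebpb, the overexpressed gene, read 483 and 473 CPM (CPM are counts scaled by library size and the TMM factor of edgeR) in C/EBPβ cells and 85.0 and 76.8 CPM in empty vector cells, with a log2 fold change of 2.56. That value includes any reads of the transgene that map to Cebpb. Of 9 myoblast markers, all were detected, and the summed markers stood at 2038 and 2343 CPM in C/EBPβ cells, against 3225 and 3516 CPM in empty vector cells. Most of each sum came from Des, Itga7 and Cdh15, which were lower in C/EBPβ cells, as was Myod1, while Myf5 and Pax7 were higher. The labels do not say whether the replicates are separate cultures or transductions, so p-values measure the spread between these libraries, which may be technical.

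Upstream sequence is shown for 4 genes that were higher in C/EBPβ cells, because leucine-zipper factors bind DNA: Lgr4 and Fzd1 hold a match to the C/EBP-type motif TTGCNNAA, read on both strands (its reverse complement is TTNNGCAA), and Ror2 and Rspo1 hold none. Each line gives the 250 bases before the RefSeq start, 5′ to 3′ on the gene's strand, from RefSeq on GRCm38.p6, with the match in capitals.
Lgr4, chr2:109917397-109917646, plus strand: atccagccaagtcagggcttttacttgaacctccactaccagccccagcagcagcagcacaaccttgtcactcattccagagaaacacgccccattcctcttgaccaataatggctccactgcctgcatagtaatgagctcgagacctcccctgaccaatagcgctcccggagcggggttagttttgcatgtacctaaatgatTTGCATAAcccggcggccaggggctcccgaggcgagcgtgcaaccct
Fzd1, chr5:4758217-4758466, minus strand: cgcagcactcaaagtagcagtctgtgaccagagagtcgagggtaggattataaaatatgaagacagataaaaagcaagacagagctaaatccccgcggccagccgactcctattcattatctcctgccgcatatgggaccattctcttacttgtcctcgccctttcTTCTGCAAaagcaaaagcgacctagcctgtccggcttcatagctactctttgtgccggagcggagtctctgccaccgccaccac
Ror2, chr13:53286125-53286374, minus strand: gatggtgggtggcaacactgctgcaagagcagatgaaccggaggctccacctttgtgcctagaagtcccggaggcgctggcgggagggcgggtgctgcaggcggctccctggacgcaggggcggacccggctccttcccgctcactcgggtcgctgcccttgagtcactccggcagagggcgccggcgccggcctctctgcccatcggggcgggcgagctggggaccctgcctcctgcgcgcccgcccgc
Rspo1, chr4:124986180-124986429, plus strand: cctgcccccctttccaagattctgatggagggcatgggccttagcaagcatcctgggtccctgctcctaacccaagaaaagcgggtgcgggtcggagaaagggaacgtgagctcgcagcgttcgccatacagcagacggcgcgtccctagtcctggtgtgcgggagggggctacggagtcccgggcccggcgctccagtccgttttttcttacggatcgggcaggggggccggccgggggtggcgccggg
In Lgr4 the match lies at -47 to -40 from the start, and in Fzd1 it lies at -84 to -77 and reads as the reverse complement.

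The motif is common. It occurs in 9.56% of all 32851 windows of this length in the RefSeq table and in 4 of the 50 windows (8%) of the 40 members that the table lists. Those 4 windows belong to Lgr4, Fzd1, Dvl2 and Wnt3. The TCF/LEF-type motif CTTTGNT (reverse complement ANCAAAG) occurs in 16.0% of all windows and in 6 of the 50 member windows (12%). A match describes the letters only, and binding was not measured.

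Of the 57 genes, 41 had enough counts to be tested. Rspo1 passed the count filter through its C/EBPβ libraries only, and Wnt7b through its empty vector libraries only. Their levels in the other group were too low to pass, so the directions of their calls follow in part from the filter. Wnt5b reached the filter level in both C/EBPβ libraries but not in empty vector replicate 2, so this limit holds in part for its call too. At an adjusted p of 0.05 (quasi-likelihood test of edgeR, Benjamini-Hochberg over all tested genes, which is behind each adjusted p given here), 15 were higher and 3 were lower in C/EBPβ cells, and 23 were not called. Among all 15078 tested genes 24.9% were called, 14.1% higher and 10.8% lower, whereas the shares among the tested members were 43.9%, 36.6% and 7.32%. The median log2 fold change was 0.21 over the tested members and 0.000545 over all tested genes, and the median level over the 4 libraries was 30.5 CPM for the members and 24.8 CPM for all tested genes. At least 2-fold differences were found in 8 of the higher genes and in all 3 lower ones. Of the 23 members not called, 9 had groups that did not overlap. With 2 libraries against 2, interchangeable libraries would do so with a probability of 0.333. The share over all tested genes was not computed. By role, the called ligand, secretion and receptor genes other than Wnt7b were all higher. None of the cytoplasmic transducers was called, and 2 of the 3 lower genes encode nuclear factors. Roles held only 1 to 9 tested genes, and differences between roles were not tested.

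**Figure D1:**
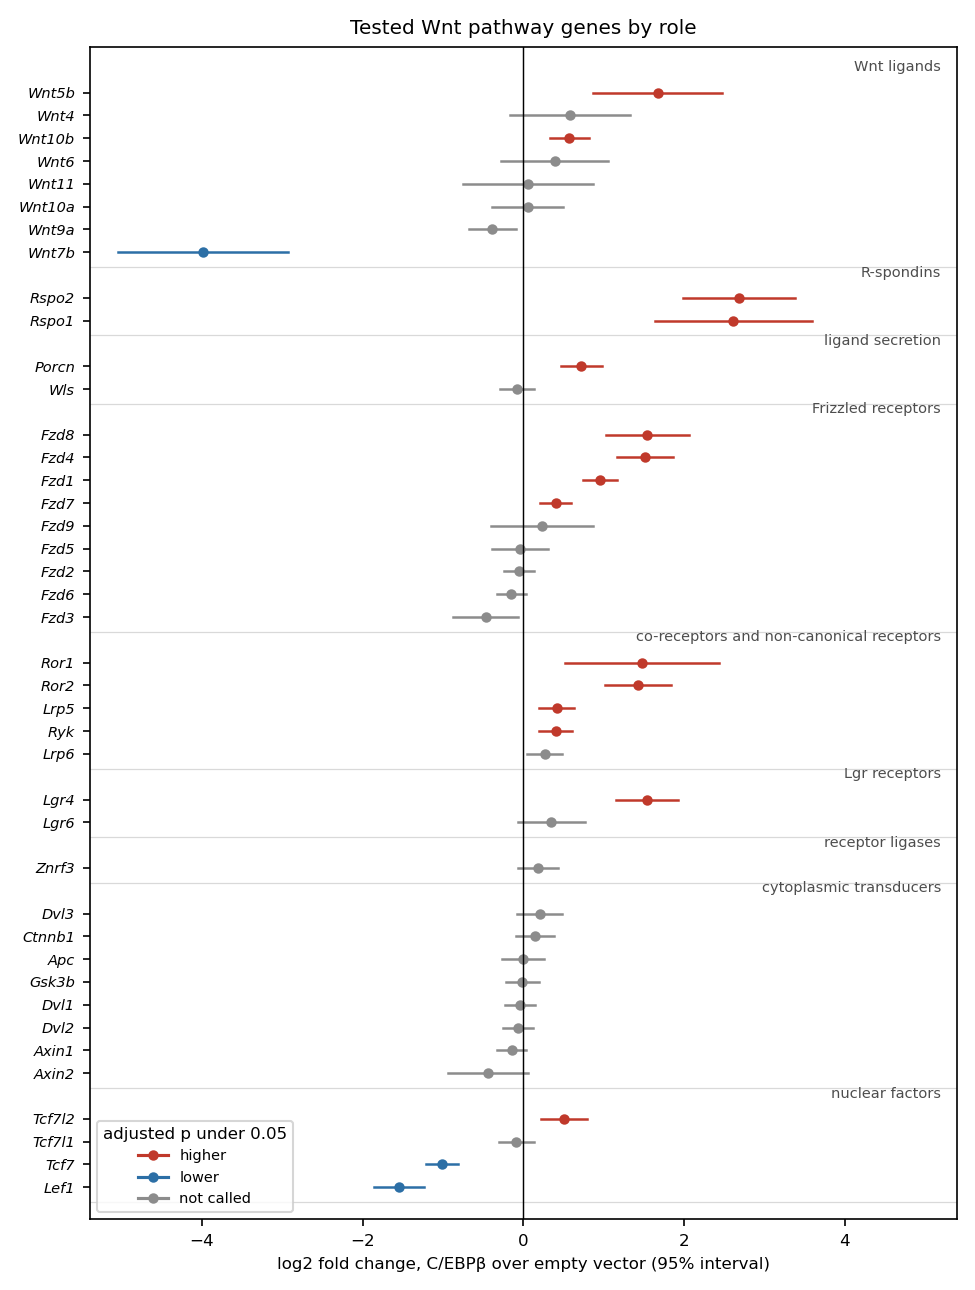
Log2 fold change, C/EBPβ over empty vector, of the 41 tested genes in groups by role, with 95% intervals from the edgeR fit (n = 2 libraries per group). Called genes are in red where higher and in blue where lower. The intervals of the 8 cytoplasmic transducers all include 0, while those of Tcf7, Lef1 and Wnt7b lie to the left of it. The intervals are not adjusted for the number of genes. Those of Fzd3 and Wnt9a also lie to the left of 0 and that of Lrp6 to the right, although these genes were not called.

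Of the 19 Wnt ligand genes, 8 were tested, 2 were higher, 1 was lower and 5 were not called. The ligand with the highest level per length was Wnt10b. Wnt10b (chromosome 15, 98771753 to 98778150, minus strand), a ligand known for holding back fat-cell differentiation, read 62.2 and 52.6 CPM in C/EBPβ cells and 36.9 and 40.3 CPM in empty vector cells. Both C/EBPβ libraries stood above both empty vector libraries, with a log2 fold change of 0.57 (SE 0.11, adjusted p = 0.00528). Per kilobase of exon (FPKM, computed here) the Wnt10b level was 24.6 ± 2.92 in C/EBPβ cells and 16.5 ± 1.04 in empty vector cells (SD, n = 2 each), and Wnt10a followed with 5.91 ± 1.88 in C/EBPβ cells and 5.76 ± 0.349 in empty vector cells. Wnt10a, a ligand known from tooth and hair development, read 11.3 and 17.9 CPM in C/EBPβ cells and 14.8 and 13.6 CPM in empty vector cells. Its groups overlapped, and its log2 fold change of 0.05 was not called.

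Wnt5b, a ligand of the β-catenin-independent branches, rose at low level. It read 1.23 and 0.990 CPM in C/EBPβ cells and 0.438 and 0.238 CPM in empty vector cells. Behind these values were 47 and 91 counts in C/EBPβ cells and 18 and 9 in empty vector cells. Empty vector replicate 2, with its 9 counts, was below the level of the count filter, so the direction follows in part from the filter. The log2 fold change was 1.67 (SE 0.35, adjusted p = 0.00936). Without empty vector replicate 2 it was 1.31, and the call was lost (adjusted p = 0.0641).

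Wnt7b had the largest change of the 41 tested members, and it passed the count filter through its empty vector libraries only. This ligand, known from lung and kidney development, had 1 and 15 counts in C/EBPβ cells and 65 and 86 counts in empty vector cells, which is 0.0262 and 0.163 CPM in C/EBPβ cells and 1.58 and 2.27 CPM in empty vector cells. Every empty vector library was well above every C/EBPβ library, but the 2 C/EBPβ libraries also differed from each other. The log2 fold change was -3.99 (SE 0.46, adjusted p = 0.000502). Over pooled counts the ratio of C/EBPβ to empty vector was 0.0636, with a 95% counting interval of 0.0355 to 0.107. Against the same controls, C/EBPβ replicate 1 alone, with its 1 count, gave 0.0134 (0.000338 to 0.0761), and replicate 2 alone gave 0.0847 (0.0463 to 0.144). Without C/EBPβ replicate 2 the fitted log2 fold change was -6.03, a value set by that single count. These intervals cover counting error only.

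The remaining tested ligands were not called. Wnt4, a ligand of kidney and gonad development, read 23.8 and 13.6 CPM in C/EBPβ cells and 16.3 and 8.30 CPM in empty vector cells, so that the groups overlapped (log2 fold change 0.58, 95% interval -0.16 to 1.33). Wnt9a, known from joint formation, read 9.80 and 10.6 CPM in C/EBPβ cells and 12.4 and 14.4 CPM in empty vector cells. Its groups did not overlap, as in 9 of the 23 tested members not called. Its log2 fold change of -0.39 narrowly missed the threshold (adjusted p = 0.0593). Wnt6 and Wnt11 had log2 fold changes of 0.39 and 0.06, each with groups that overlapped.

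The other 11 ligand genes had too few counts to be tested. Wnt3a, Wnt8b and Wnt9b had 0 counts in all 4 libraries, where 3 counts correspond to 0.0776 and 0.0326 CPM in C/EBPβ cells and to 0.0733 and 0.0799 CPM in empty vector cells. Wnt5a, the best known ligand of Ror2, had 3 and 12 counts in C/EBPβ cells and 2 and 0 in empty vector cells, a ratio of 4.50 with a 95% counting interval of 1.05 to 40.6. Wnt2b had 12 and 17 counts in C/EBPβ cells and 5 and 3 in empty vector cells. Wnt16 had 5 and 7 counts in C/EBPβ cells and 2 and 0 in empty vector cells, a ratio of 3.60 (0.802 to 33.1). Wnt1 had 5 and 13 counts in C/EBPβ cells and 9 and 2 in empty vector cells, and Wnt2, Wnt3, Wnt7a and Wnt8a had at most 4 in any library.

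Several of these genes lie side by side on GRCm38. Wnt10b and Wnt1 are divergent neighbours on chromosome 15 with 11.7 kb between them, and Wnt10b was the most abundant ligand while Wnt1 stayed below the test. Wnt6 and Wnt10a lie 6.19 kb apart on chromosome 1, and neither was called. On chromosome 11, Wnt9a lies 16.2 kb from Wnt3a, which had 0 counts, and the pair Wnt9b and Wnt3, 24.3 kb apart, held 1 count in the 4 libraries together.

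Both tested R-spondins rose from a low level, 6.43-fold for Rspo2 and 6.13-fold for Rspo1. Rspo1 passed the count filter through its C/EBPβ libraries only, so a test of it required a higher level there. Rspo2 (chromosome 15, 43020811 to 43170818, minus strand), known from limb and lung development, read 2.39 and 1.77 CPM in C/EBPβ cells and 0.340 and 0.291 CPM in empty vector cells. The lowest C/EBPβ library was above the highest empty vector library several times over, and the log2 fold change was 2.68 (SE 0.31, adjusted p = 0.000472). Rspo1 (chromosome 4, 124986430 to 125009099, plus strand), known from ovary development, read 0.970 and 0.664 CPM in C/EBPβ cells and 0.146 and 0.106 CPM in empty vector cells. These values rest on 37 and 61 counts in C/EBPβ cells and 6 and 4 in empty vector cells, with a log2 fold change of 2.62 (SE 0.43, adjusted p = 0.00289). Rspo3 had 2 and 13 counts in C/EBPβ cells and 4 and 1 in empty vector cells and was not tested, and Rspo4 had 0 counts in all 4 libraries. Summed over the 4 genes, R-spondin level was 1.08 ± 0.221 FPKM in C/EBPβ cells and 0.180 ± 0.0414 FPKM in empty vector cells (SD, n = 2 each).

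Of the 2 secretion factors, Porcn was called and Wls was not. Porcn, the acyltransferase that lipidates Wnt proteins, read 19.9 and 20.4 CPM in C/EBPβ cells and 12.9 and 11.5 CPM in empty vector cells. Replicates were close and groups far apart, with a log2 fold change of 0.72 (SE 0.11, adjusted p = 0.0022). Wls, the carrier of Wnt proteins, read 523 and 559 CPM in C/EBPβ cells and 575 and 566 CPM in empty vector cells, with a log2 fold change of -0.07 (95% interval -0.28 to 0.13). At 61.6 ± 2.88 FPKM in C/EBPβ cells and 64.9 ± 0.691 FPKM in empty vector cells it came after Ctnnb1 in length-scaled level among the members.

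**Figure D2:**
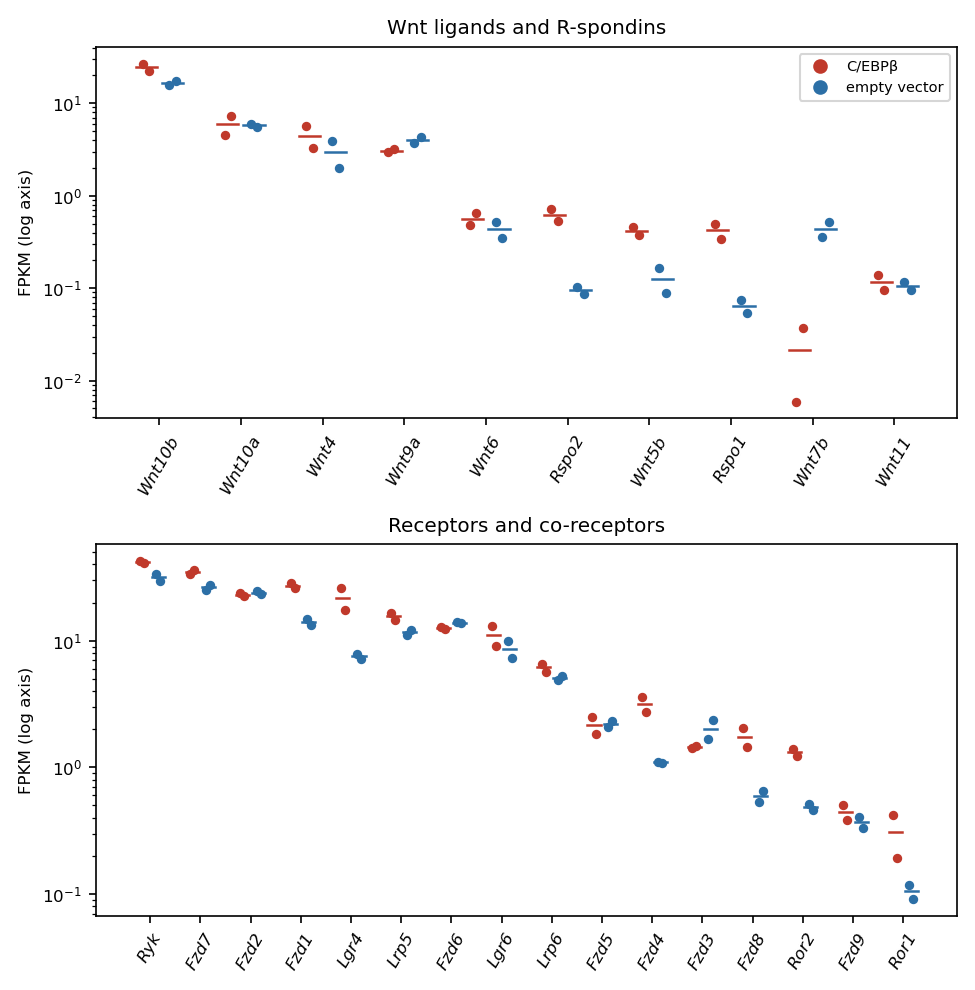
Level per exon length (FPKM, log axis) of the tested Wnt ligands and R-spondins (upper panel) and receptors and co-receptors (lower panel), ordered by their mean. Points are libraries and bars are group means (n = 2). Wnt10b leads the ligands at 24.6 and 16.5 FPKM in C/EBPβ and empty vector cells, and the R-spondins lie below 1 FPKM in both.

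Of the 10 Frizzled receptor genes, 9 were tested, 4 were higher in C/EBPβ cells and none was lower. Fzd7, a receptor described in muscle satellite cells, was the most abundant at 34.9 ± 1.49 FPKM in C/EBPβ cells and 26.4 ± 1.55 FPKM in empty vector cells. It read 153 and 163 CPM in C/EBPβ cells and 115 and 125 CPM in empty vector cells, with a log2 fold change of 0.40 (SE 0.09, adjusted p = 0.00994). Without C/EBPβ replicate 2 that call was lost (0.36, adjusted p = 0.0560). Fzd1 (chromosome 5, 4753839 to 4758035, minus strand), whose upstream sequence is given above, read 119 and 109 CPM in C/EBPβ cells and 62.1 and 55.5 CPM in empty vector cells. Its groups were far apart, and the log2 fold change was 0.95 (SE 0.09, adjusted p = 0.00024).

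Fzd4, which also serves as the receptor of the ligand Norrin in retinal vessels, read 24.0 and 18.3 CPM in C/EBPβ cells and 7.41 and 7.32 CPM in empty vector cells. The log2 fold change was 1.51 (SE 0.15, adjusted p = 0.000269). Fzd8 read 6.84 and 4.85 CPM in C/EBPβ cells and 1.80 and 2.17 CPM in empty vector cells, a log2 fold change of 1.55 (SE 0.22, adjusted p = 0.00157). In both genes each C/EBPβ library was more than 2 times as high as any empty vector library.

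The other Frizzled genes gave no call. Fzd2, the second most abundant by length-scaled level, read 87.1 and 82.0 CPM in C/EBPβ cells and 90.6 and 85.2 CPM in empty vector cells (log2 fold change -0.06, 95% interval -0.25 to 0.13). Fzd6 had a log2 fold change of -0.15 and Fzd3 one of -0.47, both with groups that did not overlap, and Fzd5 and Fzd9 had -0.04 and 0.23 with groups that did. Groups did not overlap in 9 of the 23 tested members not called. Fzd10 had 0 counts in all libraries. The summed Frizzled level was 107 ± 3.09 FPKM in C/EBPβ cells and 84.6 ± 0.00686 FPKM in empty vector cells (SD, n = 2 each).

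Of the 5 co-receptors and non-canonical receptors, 4 were called, all higher. Ryk, a receptor with an inactive kinase domain, read 193 and 187 CPM in C/EBPβ cells and 152 and 135 CPM in empty vector cells, with a log2 fold change of 0.40 (SE 0.09, adjusted p = 0.0129). Lrp5, the co-receptor known for its control of bone mass, read 161 and 142 CPM in C/EBPβ cells and 108 and 119 CPM in empty vector cells, with a log2 fold change of 0.42 (SE 0.10, adjusted p = 0.014). Neither gene had overlapping groups, and the folds were 1.32 for Ryk and 1.33 for Lrp5. Leaving out C/EBPβ replicate 1 ended both calls, with 0.38 for Ryk (adjusted p = 0.0525) and 0.33 for Lrp5 (adjusted p = 0.120), and leaving out empty vector replicate 1 ended that of Lrp5 (0.34, adjusted p = 0.0565). Lrp6, the closest relative of Lrp5, read 90.1 and 78.1 CPM in C/EBPβ cells and 67.3 and 72.2 CPM in empty vector cells and missed the threshold (0.27, adjusted p = 0.0753).

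The Ror receptors changed more, at lower level. Ror2 (chromosome 13, 53109312 to 53286124, minus strand), a receptor tyrosine kinase family member known from limb and skeletal development, read 5.92 and 5.22 CPM in C/EBPβ cells and 2.16 and 1.96 CPM in empty vector cells. Replicates were close, and the log2 fold change was 1.43 (SE 0.18, adjusted p = 0.00072). Ror1, its relative, read 2.44 and 1.11 CPM in C/EBPβ cells and 0.681 and 0.529 CPM in empty vector cells. The C/EBPβ libraries differed from each other, and the log2 fold change was 1.48 (SE 0.42, adjusted p = 0.0339). Its call was lost when any of 3 libraries was left out, but only without C/EBPβ replicate 1 did the fold move over 1.5 times. The log2 fold change was 0.87 when C/EBPβ replicate 1 was left out, 1.67 when empty vector replicate 1 was and 1.31 when empty vector replicate 2 was, none of them a call.

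Lgr4 was the R-spondin receptor with a call, and the difference was large for an abundant gene. Lgr4 (chromosome 2, 109917647 to 110014257, plus strand) read 154 and 104 CPM in C/EBPβ cells and 45.9 and 42.5 CPM in empty vector cells. The C/EBPβ libraries were apart from each other, yet both were more than 2 times as high as either empty vector library, with a log2 fold change of 1.54 (SE 0.17, adjusted p = 0.000387). Lgr6 read 89.0 and 62.3 CPM in C/EBPβ cells and 68.0 and 50.4 CPM in empty vector cells. Its groups overlapped, and its log2 fold change was 0.35 (95% interval -0.07 to 0.77). Lgr5, best known as a stem cell marker of the gut and itself a β-catenin target, had 9 and 49 counts in C/EBPβ cells and 9 and 5 in empty vector cells and was not tested. Its pooled ratio was 2.49 (95% counting interval 1.37 to 4.83), with C/EBPβ replicate 1 alone it was 1.31 (0.498 to 3.24), and with replicate 2 alone it was 2.98 (1.62 to 5.85). Lgr5 was tested and called, as higher, with no low-count filter, and also without C/EBPβ replicate 1. In the fit with no filter the adjusted p of Cebpb was 4.72e-122, against 3.03e-06 in the main fit, so these fits differ in strictness. Lgr4 made up 66.3 ± 0.662% of the summed Lgr level in C/EBPβ cells and 46.7 ± 3.90% in empty vector cells.

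The ligases on which R-spondins and Lgr receptors act gave no call. Znrf3 read 26.3 and 23.7 CPM in C/EBPβ cells and 21.0 and 23.1 CPM in empty vector cells, with a log2 fold change of 0.18 (95% interval -0.06 to 0.43). Rnf43 had 8 and 20 counts in C/EBPβ cells and 5 and 5 in empty vector cells and was not tested.

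**Figure D3:**
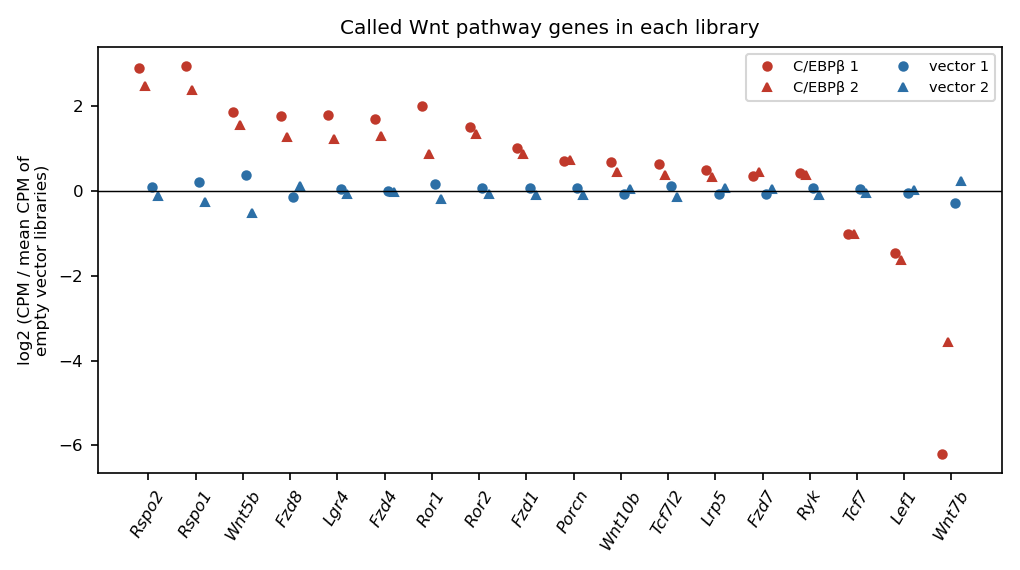
CPM of each of the 18 called genes in each library, as the log2 ratio to the mean of the 2 empty vector libraries. Red symbols are C/EBPβ libraries and blue symbols are empty vector libraries, with circles for replicate 1 and triangles for replicate 2. No gene has overlapping groups, which largely follows from choosing the genes by their calls. C/EBPβ replicate 1 lies above replicate 2 in 13 of the 15 higher genes, and the share over all higher genes was not computed.

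None of the 8 cytoplasmic transducers was called by edgeR, 0 of them had an unadjusted p under 0.05, and DESeq2 called 0. Ctnnb1, which encodes β-catenin, was the most abundant member of the whole set at 172 ± 11.3 FPKM in C/EBPβ cells and 156 ± 7.19 FPKM in empty vector cells. It read 854 and 937 CPM in C/EBPβ cells and 782 and 835 CPM in empty vector cells, with a log2 fold change of 0.15 (95% interval -0.09 to 0.38). Dvl1, the most abundant Dishevelled gene, read 128 and 127 CPM in C/EBPβ cells and 126 and 136 CPM in empty vector cells, with a log2 fold change of -0.04 (-0.23 to 0.14). Dvl2 and Dvl3 had log2 fold changes of -0.07 and 0.21.

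No gene of the destruction complex was called. Apc, a tumour suppressor protein of the complex, and Gsk3b, its kinase, each had a log2 fold change of -0.01, with 95% intervals of -0.27 to 0.25 and -0.21 to 0.19. Axin1, its scaffold, had -0.15 (-0.33 to 0.03), with groups that did not overlap. The widest interval of the 8 was that of Axin2, a feedback target of β-catenin, which read 1.26 and 1.48 CPM in C/EBPβ cells and 1.82 and 1.93 CPM in empty vector cells. Its groups did not overlap either, and its log2 fold change was -0.44 (-0.93 to 0.06, adjusted p = 0.186). A missed threshold does not show that these genes were equal in the 2 groups. Nor do groups that do not overlap show a difference, since 9 of the 23 tested members not called had such groups. Messenger RNA also says nothing of the stability of β-catenin protein, which was not measured.

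Of the 4 TCF/LEF genes, 2 were lower, 1 was higher and 1 was not called. Tcf7, which encodes a TCF factor best known from T cell development, read 27.2 and 27.1 CPM in C/EBPβ cells and 56.6 and 52.6 CPM in empty vector cells. Replicates were tight, and the log2 fold change was -1.01 (SE 0.09, adjusted p = 0.000139). Lef1, its relative, read 4.88 and 4.39 CPM in C/EBPβ cells and 13.1 and 13.8 CPM in empty vector cells, with a log2 fold change of -1.55 (SE 0.13, adjusted p = 0.000132). Both are also known as β-catenin targets. Tcf7l2, a factor known in muscle from connective tissue fibroblasts, read 39.1 and 32.7 CPM in C/EBPβ cells and 27.3 and 23.0 CPM in empty vector cells, with a log2 fold change of 0.51 (SE 0.13, adjusted p = 0.020). With C/EBPβ replicate 1 left out the value was 0.37 and with empty vector replicate 2 left out it was 0.39, and neither passed (adjusted p = 0.0884 and 0.0899). Tcf7l1, known mainly as a repressor, read 51.2 and 44.9 CPM in C/EBPβ cells and 52.0 and 49.7 CPM in empty vector cells and was not called (-0.08, 95% interval -0.30 to 0.13).

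The make-up of the factor family differed accordingly. On the length-scaled level Tcf7 was the most abundant factor in empty vector cells at 54.5 ± 0.287% of the family's sum, against 38.0 ± 2.27% in C/EBPβ cells, where Tcf7l1 held 45.0 ± 1.28%, against 34.0 ± 0.504% in empty vector cells. Tcf7l2 held 15.1 ± 0.971% in C/EBPβ cells and 7.54 ± 0.556% in empty vector cells, and Lef1 held 1.94 ± 0.0226% in C/EBPβ cells and 4.02 ± 0.339% in empty vector cells. The family's summed level was 27.2 ± 1.72 FPKM in C/EBPβ cells and 38.2 ± 1.78 FPKM in empty vector cells (SD, n = 2 each). Among Frizzleds, Fzd1 held 25.4 ± 0.965% in C/EBPβ cells and 16.6 ± 1.31% in empty vector cells, and Fzd2 held 21.6 ± 0.297% in C/EBPβ cells and 28.4 ± 1.23% in empty vector cells. Among ligands, Wnt10b held 62.4 ± 3.38% in C/EBPβ cells and 54.3 ± 4.08% in empty vector cells, with a summed ligand level of 39.3 ± 2.55 FPKM in C/EBPβ cells and 30.4 ± 0.378 FPKM in empty vector cells (SD, n = 2 each for all shares and sums). A single gene's share cannot reach a p under 0.05 with 2 libraries against 2: the smallest 2-sided exact permutation p is 0.333, which the shares of Tcf7, Tcf7l1, Tcf7l2, Lef1, Fzd1, Fzd2 and Wnt10b each had.

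**Figure D4:**
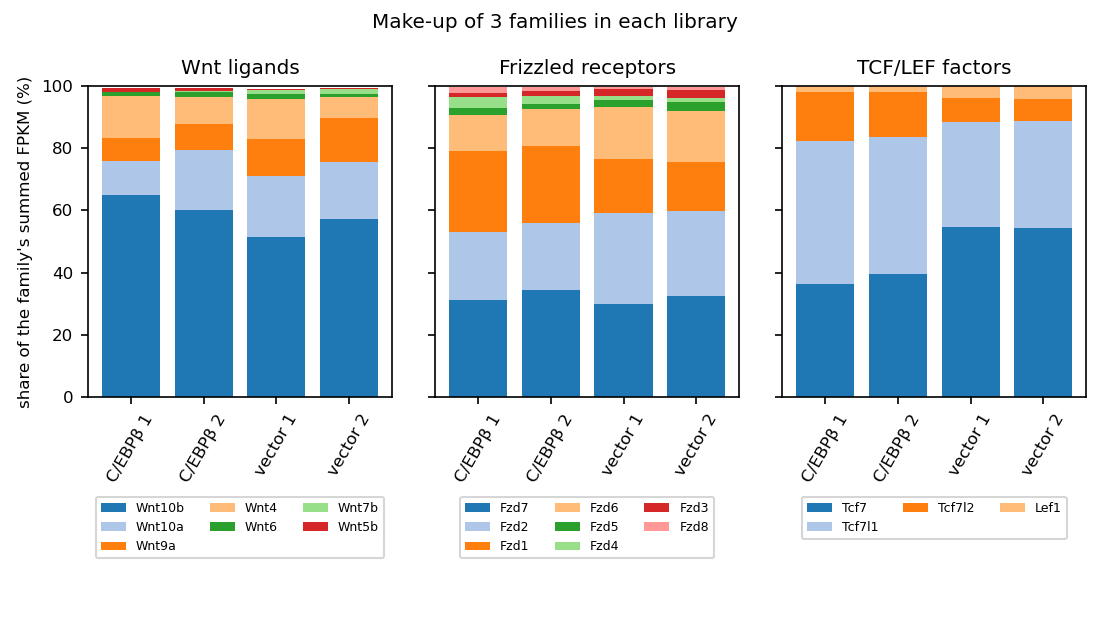
Share of the summed length-scaled level (FPKM) that each gene contributed to the Wnt ligand, Frizzled and TCF/LEF families in each library, C/EBPβ libraries first (genes under 0.5% of the sum in every library are left out). In the TCF/LEF panel Tcf7 takes 54.5% of the sum in empty vector cells and 38.0% in C/EBPβ cells, where Tcf7l1 takes 45.0%.

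The genes around the pathway were read from 4 further lists, to be set beside the 24.9% called among all tested genes and their median log2 fold change of 0.000545. Of 9 tested antagonists, a list of secreted inhibitors that also holds the membrane proteins Kremen1, Apcdd1 and Tpbg, 5 were higher and 1 was lower in C/EBPβ cells. The median log2 fold change was 0.74, which is the value of Apcdd1, itself one of the higher genes. Sfrp1, which binds Wnt proteins outside the cell, read 364 and 329 CPM in C/EBPβ cells and 1.82 and 2.09 CPM in empty vector cells (log2 fold change 7.47). Dkk2, which binds Lrp5 and Lrp6, fell to 0.786 and 1.22 CPM in C/EBPβ cells, against 15.9 and 16.8 CPM in empty vector cells (-3.95). Notum, an enzyme that strips the lipid from Wnt proteins, had a log2 fold change of 2.52, and Dkk3, a divergent relative of Dkk2, one of 2.54.

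Of 16 tested β-catenin target genes, 5 were higher, 6 were lower and 5 were not called (median log2 fold change 0.20). Among the 23 such genes found in the files, 6 are also members described above. Nkd2, an inhibitor that binds Dishevelled, read 96.5 and 78.4 CPM in C/EBPβ cells and 4.35 and 2.93 CPM in empty vector cells (4.58), and Tiam1, an activator of Rac, had 1.33. On the other side, Sp8, a zinc-finger factor of limb outgrowth, read 4.59 and 4.67 CPM in C/EBPβ cells and 10.4 and 10.8 CPM in empty vector cells (-1.20). The lower targets include Lef1 and Tcf7, given above among the TCF/LEF genes.

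Of 27 tested genes of planar polarity and non-canonical signalling, 11 were higher, 4 were lower and 12 were not called, with a median of 0.05. Plcb1, a phospholipase of calcium signalling, read 23.4 and 19.3 CPM in C/EBPβ cells and 3.40 and 3.17 CPM in empty vector cells (2.69). Nfatc4, a calcium-dependent factor, had a log2 fold change of 1.82, and Ptk7, a polarity receptor, had 0.80. The lower genes with the smallest adjusted p were Daam1, a formin that binds Dishevelled (-0.92), Camk2a, a calcium-dependent kinase (-1.10), and Ankrd6, a polarity protein (-0.76).

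Of 25 other tested genes of the destruction complex and of β-catenin's partners, 3 were higher, none was lower and 22 were not called, with a median of -0.05. Tle2, a corepressor of TCF factors, read 57.5 and 41.7 CPM in C/EBPβ cells and 25.6 and 28.8 CPM in empty vector cells (0.86). Bcl9l and Pygo1, both coactivators of β-catenin, had log2 fold changes of 0.53 and 0.91.

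Markers of other states moved with the groups. All 12 tested genes of differentiating muscle were lower in C/EBPβ cells, summing to 51.6 and 82.5 CPM against 245 and 272 CPM in empty vector cells. Among them, Myh8 passed the count filter through its empty vector libraries only, and Ckm was below the filter level in C/EBPβ replicate 1. The directions of these calls follow in part from the filter. In bulk RNA, fewer cells of a type and less RNA per cell cannot be told apart. Of 9 myoblast markers, 2 were higher and 4 were lower, and none of 7 proliferation genes was called by edgeR (1 had an unadjusted p under 0.05, and DESeq2 called 0). Of 8 fibroblast and fibro-adipogenic markers 6 were tested, 2 of them higher, among them Pdgfra at 69.9 and 48.3 CPM in C/EBPβ cells and 10.5 and 9.44 CPM in empty vector cells, and 1 lower, while the sums of the list overlapped at 426 and 371 CPM in C/EBPβ cells and 439 and 382 CPM in empty vector cells. Most of each sum came from Ly6a, which was not called. Dpt, the other higher gene, passed the count filter through its C/EBPβ libraries only, so its direction follows in part from the filter. The part of these differences in the Wnt pathway values was not tested.

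Some markers of leukocytes, endothelium, epithelium and nerve were at or near 0, while others on the same lists were detected. The genes named below with few or 0 counts were picked by their counts. Of 10 leukocyte markers 3 were tested: Csf1r and Cd14 were higher, and Cd68 was not called. The list summed to 29.7 and 34.0 CPM in C/EBPβ cells and 21.2 and 19.3 CPM in empty vector cells. Adgre1, Itgam and Tyrobp had 0 counts in all libraries, and Ptprc had at most 2. Of 9 endothelial markers 2 were tested and Vwf was higher, with sums of 1.21 and 1.26 CPM in C/EBPβ cells and 0.705 and 0.529 CPM in empty vector cells. Vwf passed the count filter through its C/EBPβ libraries only, so its direction follows in part from the filter. Emcn and Erg had 0 counts. Of 6 epithelial markers 2 were tested, Krt14 and Cdh1, and both were lower. Cdh1 passed the count filter through its empty vector libraries only, so its direction follows in part from the filter. The list summed to 11.7 and 9.94 CPM in C/EBPβ cells and 21.5 and 20.1 CPM in empty vector cells, and Epcam had 0 counts. Of 6 Schwann and neural markers 2 were tested and Tubb3 was lower, with sums of 123 and 134 CPM in C/EBPβ cells and 228 and 248 CPM in empty vector cells, and Sox10 and Rbfox3 had 0 counts.

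The authors' deposited table of a comparison lists 47 of the 57 genes and gives an adjusted p for 44. Of these, 18 pass 0.05 in the authors' deposited table, 15 higher and 3 lower, and these are the same 18 genes in the same directions as here. The share called among all genes with an adjusted p in the authors' deposited table is 26.0%. Its mean signals show that it rests on counts that differ, for some genes, from those used here.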

How the data were processed

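Messenger RNA was measured in 4 strand-specific libraries, grouped by the sample titles. The deposited counts are whole-number fragment counts per gene, which per the file headers come from featureCounts 1.5.1 with GENCODE M12, paired reads and the reverse strand. Multi-mapping and ambiguous reads were not counted. Per the submitters' processing notes, the aligner was HISAT2 2.0.4, the build GRCm38, the counter featureCounts 1.4.6 and the test DESeq2. The sources thus name different versions of featureCounts, and which applies was not settled. The authors' deposited table carries, in the naming of DESeq2, a mean signal per gene, a log2 fold change and its error, a test score and both raw and adjusted p-values. Which libraries entered it is not stated. Its mean signal was 4273 for Porcn and 1975 for Fzd6. Porcn had 759 and 1873 counts in C/EBPβ cells and 531 and 436 in empty vector cells. Fzd6 had more in each library, with 2010 and 4703 in C/EBPβ cells and 2373 and 2171 in empty vector cells. The counts behind the authors' deposited table thus differ from those used here, at least for some genes.

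Members were found by symbol in the authors' deposited table (47) or in the reference annotation alone (10) and joined by Ensembl identifier. Of 49585 identifiers 49367 had a symbol. The test was the quasi-likelihood test of edgeR 4.0.16 (R 4.3.3), run with TMM scaling, filterByExpr (minimum count 10, minimum total 15), no covariate and Benjamini-Hochberg adjustment over 15078 genes, and the procedure was tested on simulated data. FPKM are these scaled counts per kilobase of exon length from the count files, so they depend on the annotated length. Same-strand exons of another gene overlap Ctnnb1 and Dvl2 only, and those overlaps were not counted for either gene. Replicates differed by more than sampling noise, with a chi-square per degree of freedom of 22.7 in C/EBPβ cells and 20.7 in empty vector cells, so all 4 were used as separate libraries. Mitochondrially encoded transcripts took between 0.954% and 1.38% of counts.

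Values per library are given by rule for called members that average 1 CPM or more and for the 2 most abundant members of each role by FPKM. From each further list come up to 3 called genes per direction with the smallest adjusted p. Other genes with values by library, such as Wnt5b, Wnt4 and Axin2, were added after their values were seen. The members and all lists were chosen with earlier results of these data known. Alternatives were scaling by totals only, no filter and a stricter one (1 CPM in 2 libraries), the replicate number as a block, each library left out in turn, DESeq2 1.42.0, and a test against a 1.5-fold change.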

Additional observations from a re-analysis of the deposited data

How the results depend on the processing

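With only 2 libraries per group, the number of calls depends on the settings more than the directions do. Over 365 values of tested members under the alternatives other than the 1.5-fold test, 327 kept their direction and their side of the threshold, 10 lost a call, 14 gained one and 14 changed sign. All 14 belonged to genes with no call: across the fits that leave out 1 library, log2 fold changes ranged from -0.26 to 0.17 for Fzd5, -0.33 to 0.33 for Wnt10a, -0.18 to 0.38 for Wnt11, -0.17 to 0.17 for Apc, -0.10 to 0.0070 for Dvl1, -0.10 to 0.0713 for Gsk3b and -0.18 to 0.0074 for Tcf7l1, and Apc had 0.0015 with no low-count filter and 0.0020 with the replicate block. Calls under every alternative other than the 1.5-fold test were those of Fzd1, Fzd4, Fzd8, Lef1, Lgr4, Porcn, Ror2, Rspo2, Tcf7, Wnt10b and Wnt7b. The share of all tested genes that kept a call in this way was not computed.

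Against a 1.5-fold change, edgeR called 11 members (8 higher, 3 lower; the calls of Fzd7, Lrp5, Porcn, Ror1, Ryk, Tcf7l2 and Wnt10b were lost) and 1259 of all genes (808 higher, 451 lower), since that test asks for a larger difference. It called 6 of the non-canonical list and 0 of the other destruction complex genes, where 2 had an unadjusted p under 0.05 and DESeq2, against no change, called 4. With 1 library left out, calls ranged from 2493 to 3462 over all genes, from 966 to 1386 for lower genes, from 15 to 19 for members and from 3 to 5 for lower members. The lowest counts over all genes came without C/EBPβ replicate 1, and 5 lower members came without empty vector replicate 1, when Fzd3 and Wnt9a joined. Lgr5 joined without C/EBPβ replicate 1. Lgr6 and Wnt4 joined without C/EBPβ replicate 2, with log2 fold changes of 0.59 and 0.94. With no low-count filter 24 of 52 tested members were called, 5 of them lower, beside 4506 of 26623 genes. That setting also called 5 of the other destruction complex genes. The stricter filter left 16 calls of 37 tested members, since Rspo1 and Wnt5b were not tested, beside 3450 of 12555 genes. DESeq2 called the same 18 members, beside 3550 of all genes.

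Replicate numbers do not establish pairs here: the labels say nothing of shared batches, and the deviations of same-numbered libraries correlated at r = 0.147 over 15078 genes with only 2 pairs. With the replicate block 23 members were called (5 lower; Fzd3, Lgr6, Lrp6, Wnt4 and Wnt9a joined, none was lost), 5 of the other destruction complex genes and 4536 of all genes. Depth limits the 16 members that were not tested, for which 3 counts are 0.0326 to 0.0799 CPM.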

Other observations

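Some genes of the further lists differed beyond those named by the rule, and they are given here as values chosen after they were seen. All 3 Prickle genes, which encode planar polarity proteins of the cytoplasm, were higher in C/EBPβ cells. Prickle1 read 41.5 and 34.5 CPM in C/EBPβ cells and 17.7 and 23.2 CPM in empty vector cells (log2 fold change 0.89, adjusted p = 0.00308). Prickle2 read 4.69 and 4.01 CPM in C/EBPβ cells and 0.948 and 1.16 CPM in empty vector cells (2.03, adjusted p = 0.00034). Prickle3 had a log2 fold change of 1.18 and Celsr1, a polarity cadherin, one of 1.17. Each of these genes had groups that did not overlap, which largely follows from choosing them by their calls.

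Among the β-catenin targets, Jag1, a Notch ligand, read 27.2 and 20.0 CPM in C/EBPβ cells and 9.89 and 8.59 CPM in empty vector cells (log2 fold change 1.34, adjusted p = 0.000639). Bmp4, a growth factor, read 80.3 and 60.1 CPM in C/EBPβ cells and 36.8 and 21.9 CPM in empty vector cells (1.25, adjusted p = 0.00457). In the other direction, Ccnd1, which encodes cyclin D1, read 268 and 296 CPM in C/EBPβ cells and 489.9 and 439.9 CPM in empty vector cells (-0.72, adjusted p = 0.00121). Sfrp2, a secreted antagonist, differed widely between replicates, with 72.4 and 15.4 CPM in C/EBPβ cells and 4.94 and 1.24 CPM in empty vector cells (3.79, SE 0.76).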
